A study of Homo sapiens with 8 samples.

Results

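KEAP1, CUL3, NFE2L2 (which encodes NRF2), NFE2L1 (which encodes NRF1), BACH1 and the small MAF genes MAFF, MAFG and MAFK form the core of the NRF2 stress switch. These 8 genes, of 19114 targeted genome-wide, were followed guide by guide through pooled CRISPR screens sorted on the protein Serpin B5. The 6 transcription factors among them were also among the 1436 genes of a library focused on transcription factors (TFs), which held no guides for KEAP1 or CUL3. The genes are a named set, chosen from measured values of these same screens, namely their scores between bins and the different sign of NFE2L2 in the TF-focused library. All scores of these genes are therefore a description, and no test was made of them.

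KEAP1 is the substrate adaptor of a ubiquitin ligase built on the scaffold CUL3, and it hands NRF2 to the proteasome until oxidants or electrophiles modify its cysteines. NRF2 then enters the nucleus, pairs with a small MAF protein and switches on genes of glutathione, thioredoxin and NADPH metabolism, while BACH1 competes for the same DNA elements as a repressor and NRF1, a relative held at the endoplasmic reticulum, is best known for renewing proteasome genes. In pancreatic ductal adenocarcinoma NRF2 is known for lowering reactive oxygen species.

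The cells were AsPC-1, a human line from pancreatic ductal adenocarcinoma, and they expressed Cas9. They carried either the genome-wide library or the TF-focused one, were fixed and stained for Serpin B5 at day 8, and were split by flow cytometry into bins of low, bulk (middle) and high signal. The study used Serpin B5, the product of SERPINB5, as a readout of the epithelial transcription factor KLF5. The 8 libraries were 1 low, 1 bulk and 1 high for each guide library, plus a second low and bulk pair whose table holds the TF-focused guides; no group was treated with a compound. Labels conflicted in 2 places: the sample titled TF-focused high has a description that says bulk, and was taken as high by its title and its column, and the second pair carries a genome-wide genotype label. The labels do not call this pair a replicate, so it was kept apart. Since every bin is a single library, the spread between repeat sorts is not known.

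Values are counts of guide reads scaled between libraries (normalized counts). The ratio of a guide is the log2 of its normalized count in the first bin named over that in the second, and the gene score is the mean over its guides, with the standard deviation (SD) over guides as its error. Scores above 0 belong to genes with more guide reads in the bin that is named first. Where the low bin is named first, the sign is opposite to that of the beta score used by the study. That score is negative for enrichment in the low bin. In high versus bulk a score above 0 means more guide reads in the high bin. A gene was called when its score was at least 0.5 from 0, a fold of 1.41, with at least 3 guides that all had 1 sign. Genome-wide libraries held 90421905 to 102155005 counts each, and TF-focused libraries 9122855 to 38031483. As a check of the assay, SERPINB5 had the highest genome-wide low versus high score at 7.08 ± 1.29 (SD, 4 guides) and KLF5 the next at 4.70 ± 1.20 (SD, 4 guides). KLF5 was also highest in TF-focused low versus high, at 1.80 ± 1.39 (SD, 6 guides). In TF-focused high versus bulk, however, KLF5 scored only -0.14 ± 0.40 (SD, 6 guides), at rank 1051 from the highest. The genome-wide high versus bulk score of KLF5 was -1.81 ± 1.14 (SD, 4 guides). The TF-focused high library thus separated this control weakly from bulk, and the reason was not tested.

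In the genome-wide screen, guides against KEAP1 and CUL3 were poorer in the low bin than in the high bin and guides against NFE2L2 were richer there. The scores were -1.63 ± 0.26 for KEAP1, -0.96 ± 0.42 for CUL3 and 0.84 ± 0.16 for NFE2L2 (SD, 4 guides each). MAFK, a small MAF partner, was also lower at -0.53 ± 0.12 (SD, 4 guides). The other activator, NFE2L1, scored -0.02, and BACH1, MAFF and MAFG scored -0.33, 0.00 and -0.15. In all, 4 of the 8 genes were called, 3 lower and 1 higher, beside 846 of 19103 ranked genes or 4.43%. That comparison chose the members, so nothing is read from the difference between these shares. The median score was -0.24 over the 8 genes and 0.00 over all genes. In low versus bulk and high versus bulk it was -0.02 and 0.19 over the members, and -0.0037 and -0.0054 over all genes.

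KEAP1 lies on chromosome 19 of hg38, from 10486125 to 10503558 on the minus strand, and CUL3 on chromosome 2, from 224470150 to 224585397 on the minus strand. Each had 4 guides. KEAP1 guide 1 had normalized counts of 2423 in the low, 3720 in the bulk and 7965 in the high bin. Guide 2 had 1431, 2091 and 5058, guide 3 had 1318, 2155 and 4450, and guide 4 had 1365, 2036 and 3250 in the same order. All 4 guides thus climbed in steps from low through bulk to high. Their low versus high ratios were -1.71, -1.82, -1.75 and -1.25, and each lay below all 994 non-targeting control guides, of which the lowest was at -0.96.

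Against the bulk bin, KEAP1 guides departed on both sides. The low versus bulk score was -0.61 ± 0.07 (SD, 4 guides), the lowest of 19103 genes, and all 4 guides lay below every control. The high versus bulk score was 1.02 ± 0.25 (SD, 4 guides), at rank 59 from the highest, with 3 guides above every control and guide 4, at 0.67, below 1 of them. Low versus bulk called 0.974% of genes, of which 5 were lower and 181 higher, and KEAP1 was 1 of those 5. It was the only one of the 8 genes called there. Both comparisons share the bulk library, and their difference is the low versus high score, so they are not separate evidence.

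CUL3, the cullin scaffold that KEAP1 plugs into, had a shape different from that of KEAP1. Its guide 1 had normalized counts of 1442 in the low, 1299 in the bulk and 3154 in the high bin. Guide 2 had 532.2, 520.6 and 1453, guide 3 had 1362, 1308 and 2379, and guide 4 had 405.3, 459.0 and 563.6. Low and bulk counts lay close together for guides 1 to 3, and the high bin stood above both. Guide 4 instead climbed in steps, at -0.18 in low versus bulk and 0.29 in high versus bulk. The low versus bulk score was 0.01 ± 0.14 (SD, 4 guides), with guides of both signs from -0.18 to 0.15. The high versus bulk score was 0.98 ± 0.52 (SD, 4 guides), at rank 69 from the highest, where 2.67% of genes were called. KEAP1 and CUL3 were the members called in that comparison, and MAFK lay at the threshold. Over all genes, 329 were called lower in low versus high, 5 lower in low versus bulk and 260 higher in high versus bulk. A low versus bulk score that is not lowered is therefore not particular to CUL3.

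The CUL3 guides differed among themselves more than those of KEAP1. Their low versus high ratios were -1.13, -1.44, -0.80 and -0.47, and the SD over guides of 0.42 was at percentile 91.9 of all genes. Guide 4, the one nearest 0, had a 95% counting interval of -0.66 to -0.29, and 2 of 994 controls lay below it. Counting intervals here are exact binomial ones and cover counting error only, since the reads are PCR copies. With any 1 guide left out, the low versus high score of CUL3 stayed between -1.12 and -0.80, and that of KEAP1 between -1.76 and -1.57, and both were called each time. With the sum of bulk and high as reference, CUL3 was still called but smaller, at -0.57.

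NFE2L2 lies on chromosome 2 from 177218667 to 177392756 on the minus strand. In the genome-wide screen its guide 1 had normalized counts of 2136 in the low, 1635 in the bulk and 1268 in the high bin. Guide 2 had 890.5, 730.2 and 522.9, guide 3 had 1508, 952.7 and 714.3, and guide 4 had 1338, 1155 and 789.2. All 4 guides descended from low through bulk to high, the mirror of the KEAP1 order. The low versus high ratios were 0.75, 0.76, 1.07 and 0.76, and at most 2 of 994 controls lay above any of them. The gene score ranked 284 from the highest of 19103.

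The departure of NFE2L2 was spread over both sides of the bulk bin. Its low versus bulk score was 0.38 ± 0.20 (SD, 4 guides) and its high versus bulk score -0.45 ± 0.08 (SD, 4 guides). Neither reached 0.5, so NFE2L2 was called in low versus high alone, although all 4 guides had 1 sign in each. Its guide SD was at percentile 7.31 of all genes in high versus bulk and at percentile 77.5 in low versus bulk. With any 1 guide left out, the low versus high score ran from 0.76 to 0.87 and was called each time.

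**Figure D1:**
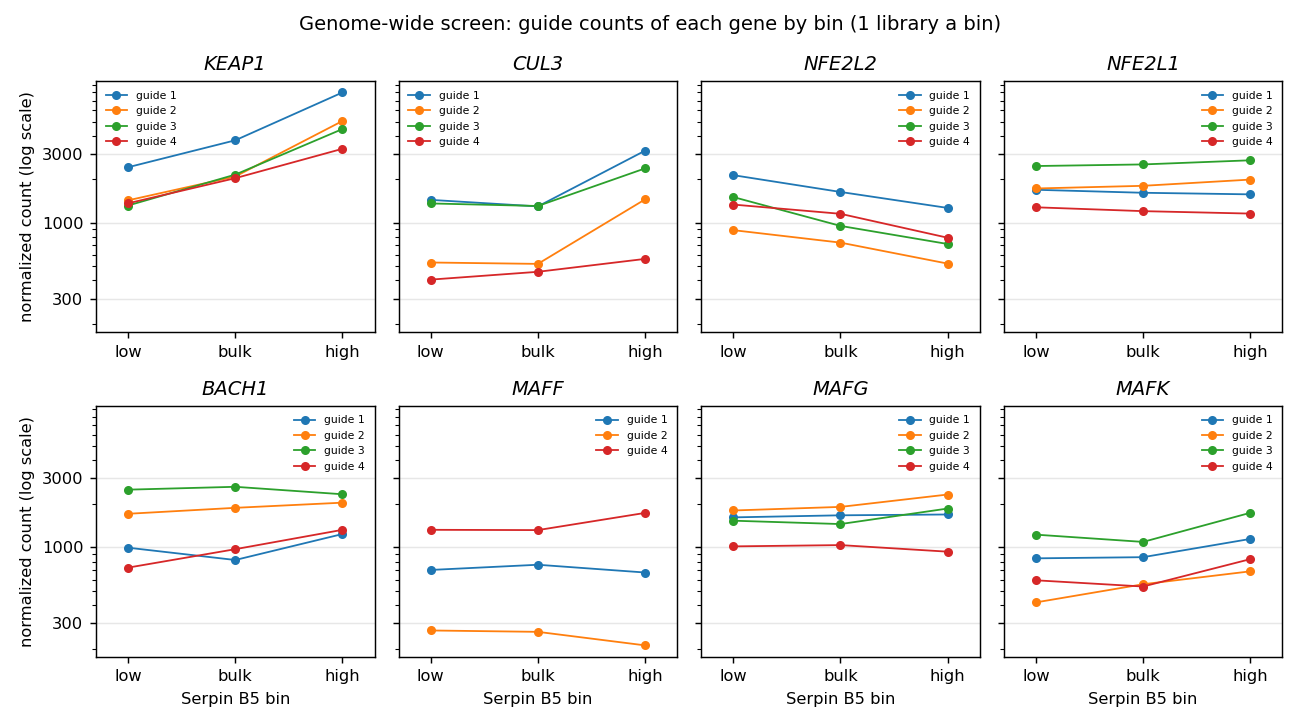
Normalized counts (log scale) of each guide of the 8 genes in the low, bulk and high Serpin B5 bins of the genome-wide screen, with 1 line per guide and 1 library per bin. The 4 KEAP1 lines climb from low to high, the CUL3 lines climb between bulk and high, and the 4 NFE2L2 lines descend.

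NFE2L1 (chromosome 17, from 48048329 to 48061545, plus strand) stayed near 0 in the genome-wide screen. Its guides ran from -0.20 to 0.14 in low versus high, with 2 of each sign, and its scores against bulk were 0.01 for low and 0.04 for high. The repressor BACH1 (chromosome 21, from 29194071 to 29630751, plus strand) had 3 guides below 0 and 1 above. Its low versus high ratios ran from -0.86 to 0.11, with a score of -0.33 ± 0.40 (SD, 4 guides) at rank 749 from the lowest. The guides of BACH1 overlapped 0 and the gene was not called. Guide 4 carried much of the score, which was -0.15 without it.

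Among the small MAF genes, which lack an activation domain of their own and serve as DNA-binding partners, the guides of MAFK (chromosome 7, from 1530702 to 1543043, plus strand) moved together. Their low versus high ratios were -0.44, -0.71, -0.50 and -0.48, so the lowest and the highest were 0.26 apart. In high versus bulk the score was 0.50 ± 0.18 (SD, 4 guides), just short of the threshold before rounding, with all 4 guides above 0. It met the threshold under 5 other settings, at 0.50 with a pseudocount of 1, with scaling by total counts and with no filter on low counts, at 0.53 centred on controls and at 0.52 as the median over guides. In low versus bulk the score was -0.03 ± 0.27. By these scores MAFK, like CUL3, differed from bulk mostly in the high bin, although the low and high gates were unequal. Guide 2 of MAFK did not share this shape, at -0.41 in low versus bulk and 0.29 in high versus bulk. MAFK was the called gene nearest the threshold in low versus high, at -0.53, and BACH1 at -0.33 was the nearest one short of it. Leaving out guide 2 of MAFK took the score to -0.47 and ended the call, as did the median over guides, at -0.49, and the sum of bulk and high as reference, at -0.30.

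MAFF (chromosome 22, from 38200767 to 38216507, plus strand) and MAFG (chromosome 17, from 81918270 to 81927735, minus strand) were not called. MAFF guide 3 was at 0 in all 3 genome-wide libraries and was dropped, which left 3 guides from -0.39 to 0.34 in low versus high. MAFG guides ran from -0.37 to 0.12, with 3 below 0. Of the 3 small MAF genes, MAFK alone was called, and whether it differed from MAFF and MAFG was not tested.

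**Figure D2:**
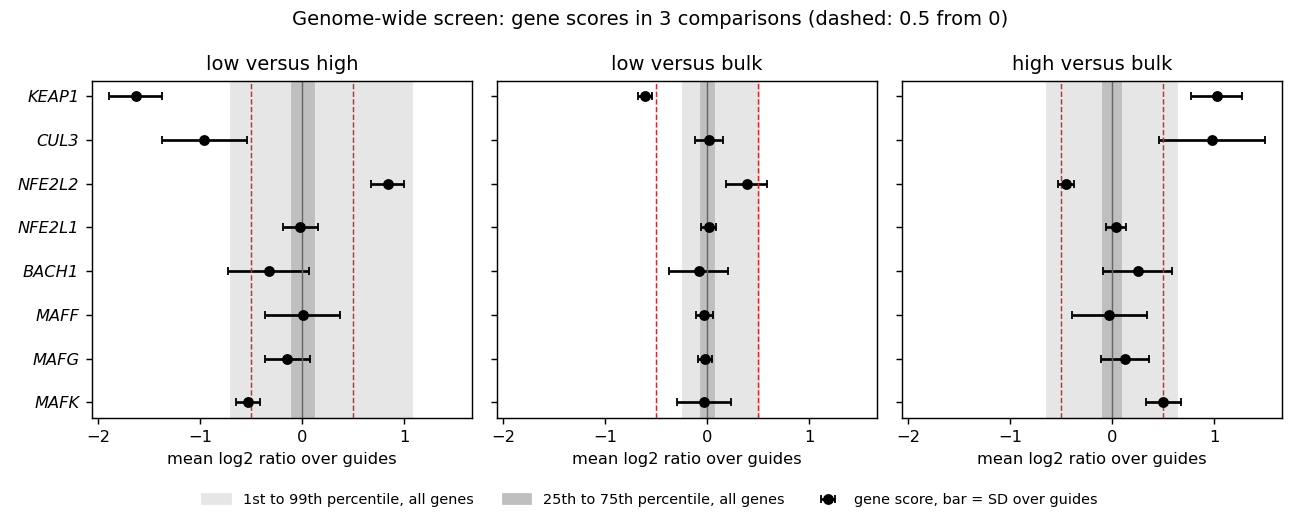
Gene scores (mean log2 ratio over guides, bars show the SD over guides) of the 8 genes in the 3 genome-wide comparisons, on grey bands for the 1st to 99th and the 25th to 75th percentile of all genes. KEAP1 lies outside the wider band in all 3 panels, CUL3 in low versus high and high versus bulk, and NFE2L2 lies on the opposite side of 0 from KEAP1.

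In the TF-focused screen NFE2L2 had the opposite sign in low versus high. There its guides were poorer in the low bin, with a score of -2.17 ± 1.48 (SD, 5 guides), the lowest of 1425 genes, against 0.84 ± 0.16 genome-wide. It was the 1 gene called of the 6 members, beside 4.98% of all genes. The guides of this library are named for an exon of their target, exon 5 for NFE2L2. In GENCODE release 44, exon 5 is the last coding exon of the MANE transcript, and its coding part runs from 177230788 to 177232008. For the other 5 members, too, the exon in the guide names carries the number of the last coding exon, although the library's own numbering is not stated. In the CNC proteins NRF2, NRF1 and BACH1 the basic leucine zipper that binds DNA lies toward the C terminus.

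The 5 NFE2L2 guides of this library did not behave alike. Guide 1 had normalized counts of 4770 in the low, 2619 in the bulk and 7738 in the high bin, and guide 2 had 4455, 2757 and 6354. Both were thus richer in each outer bin than in bulk. Guide 3 had 280.3, 975.2 and 1735 and guide 4 had 251.7, 1386 and 3317, climbing from low to high as KEAP1 guides did. Guide 5 had 58.1, 1202 and 631.5 and was poorer than bulk in both outer bins. Its raw counts were 57 in the low and 309 in the high library.

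In low versus high the 5 ratios were -0.69, -0.51, -2.61, -3.69 and -3.33. Guides 1 and 2 lay inside the range of the 49 control guides, of which 7 and 8 were lower, and guides 3, 4 and 5 lay below all of them. In low versus bulk the ratios were 0.86, 0.68, -1.79, -2.44 and -4.26, so that guides 1 and 2 had the opposite sign to the others. The score there, -1.39 ± 2.17 (SD, 5 guides), was smaller than its own spread and was not called. In high versus bulk the ratios were 1.58, 1.22, 0.84, 1.27 and -0.91, and guides 1 to 4 lay above all 49 controls and guide 5 below all of them. The score, 0.80 ± 0.99 (SD, 5 guides), ranked 2 from the highest and was not called because of guide 5. Leaving guide 5 out gave 1.23 ± 0.30 (SD, 4 guides), which met the call rule. MAFG likewise met it without its guide 4, at -0.87 ± 0.32 (SD, 5 guides).

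The guides of NFE2L2 were among the most scattered of any gene in this library. Their SD was at percentile 99.4 in low versus high, 99.6 in low versus bulk and 99.3 in high versus bulk. The low versus high call held with any 1 guide left out, over a range from -2.58 to -1.78. The TF-focused and genome-wide guides come from different libraries, and no guide sequence was used here, so the sites they cut were not compared.

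**Figure D3:**
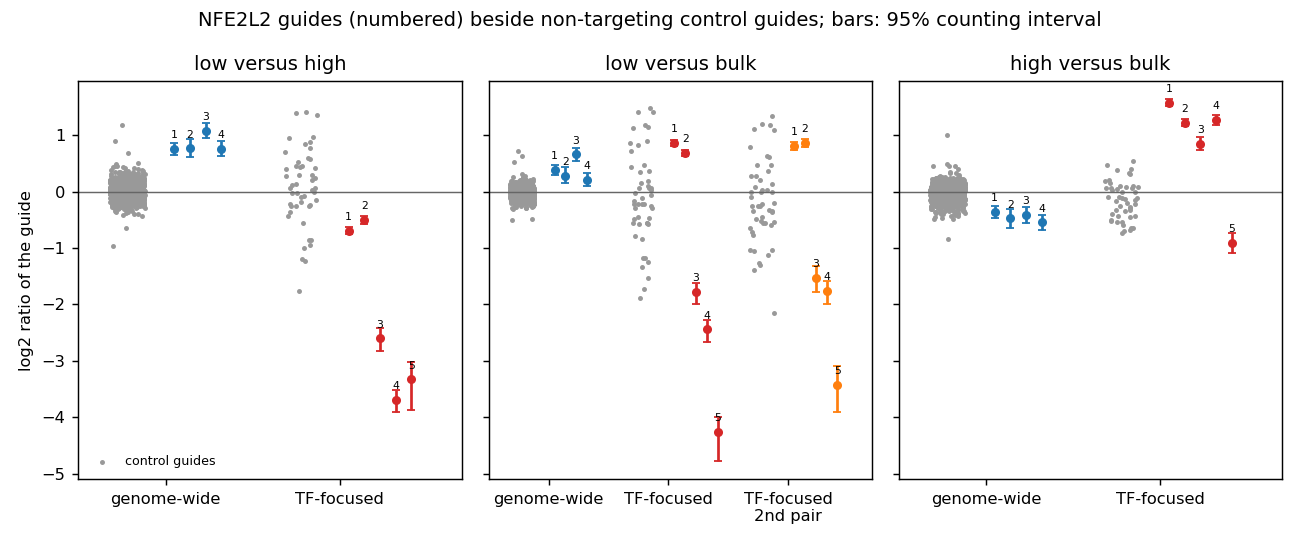
Log2 ratios of each NFE2L2 guide (numbered, bars show the 95% counting interval) in the genome-wide screen, the TF-focused screen and its second pair, beside the non-targeting control guides of the same table (grey). The genome-wide guides lie above 0 in low versus high and the 5 TF-focused guides below it, and the grey points spread much further in the TF-focused library.

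The control guides themselves scattered more in the TF-focused tables. The SD of 49 control guides was 0.685 in low versus high, 0.820 in low versus bulk and 0.334 in high versus bulk, against 0.163, 0.105 and 0.145 for the 994 controls of the genome-wide screen. In the second pair it was 0.742. The part of this scatter in the NFE2L2 result was not tested. The median control also departed from the median of targeting guides, by 0.06, -0.18 and -0.13 in the 3 TF-focused comparisons and by -0.26 in the second pair. Centring on controls changed the split of calls over all genes from 28 higher and 43 lower to 16 and 60 in low versus high. It changed that split from 46 and 48 to 85 and 19 in low versus bulk, from 1 and 8 to 11 and 2 in high versus bulk, and from 31 and 51 to 128 and 14 in the second pair.

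The second pair gave the NFE2L2 guides low versus bulk ratios of 0.81, 0.87, -1.53, -1.77 and -3.43, with a score of -1.01 ± 1.84 (SD, 5 guides) that was not called. Guide by guide these values followed the first pair, with the same signs. Over the 32 member guides the ratios of both pairs correlated with Pearson's r = 0.974, and 31 had the same sign. The r was 0.976 over the 49 control guides and 0.973 over all 8722 guides, so the controls, which target no gene, repeated their departures as closely as the members did. Whether the pairs come from separate sorts is not stated in the labels, and the correlation is across guides that are not independent replicates.

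Of the other TF-focused members, NFE2L1 had 6 guides and scored -0.53 ± 0.54 in low versus high, where 1 guide was above 0. In low versus bulk it was called at -0.88 ± 0.58 (SD, 6 guides), with all guides below 0, beside 6.6% of all genes called. Centred on control guides the score was -0.70 and the call was lost because guide 3, at -0.09 before, changed sign. In the second pair, at -0.92 ± 0.70, 1 guide was above 0. In high versus bulk its guide 4, at -1.26, lay below all 49 controls. The genome-wide score of NFE2L1 in low versus bulk was 0.01, and the SD of TF-focused controls in that comparison exceeded 0.8.

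BACH1 had 3 guides in the TF-focused tables and scored -0.25 ± 0.62 in low versus high, with guides from -0.91 to 0.32. In high versus bulk its guides 1 and 3, at 0.70 and 0.67, lay above all 49 controls and guide 2 was at -0.18. The score of 0.40 ± 0.50 (SD, 3 guides) ranked 14 from the highest of 1425. The genome-wide score of BACH1 in high versus bulk was 0.25, at percentile 94.5.

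MAFF, MAFG and MAFK had 6 guides each and scored -0.61 ± 0.93, -0.53 ± 0.98 and -0.27 ± 0.77 in low versus high. Guides of both signs were present for each. MAFG had the lowest high versus bulk score of the members, -0.66 ± 0.58, at rank 9 from the lowest, with guides 2, 3 and 5 below all controls and guide 4 at 0.38. Guides 3 and 5 were also the lowest of the MAFG guides in low versus bulk, at -2.71 and -3.19. MAFK, called genome-wide in low versus high, had TF-focused guides from -1.69 to 0.55. In high versus bulk 0.632% of all genes and none of the members were called, and in the second pair 5.75% of all genes and none of the members. The median score of the 6 genes was -0.53 in low versus high, -0.88 in low versus bulk, -0.26 in high versus bulk and -0.79 in the second pair, against -0.07, -0.13, -0.02 and -0.11 over all genes.

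**Figure D4:**
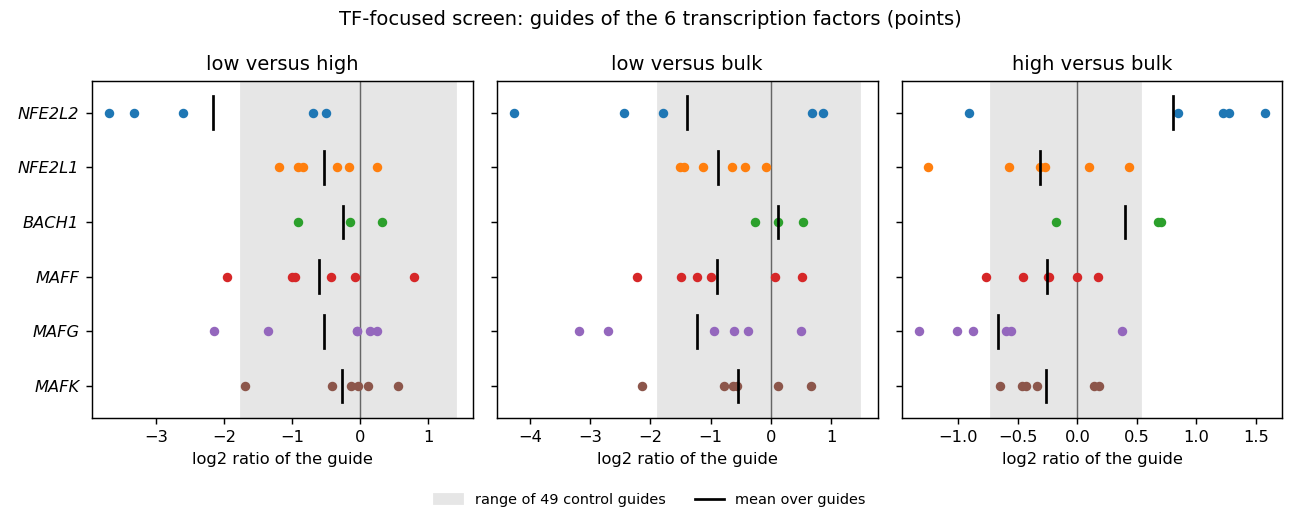
Log2 ratios of each guide (points) of the 6 transcription factors in the 3 comparisons of the first TF-focused tables, with a black bar at the mean over guides and a grey band for the range of 49 control guides. Guides 1 to 4 of NFE2L2 lie right of the band in high versus bulk and guide 5 lies left of it. In that panel MAFK is the only member with all guides inside the band.

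Genes around the switch were counted in 7 lists, first for genome-wide low versus high. The lists were chosen with earlier results of these data known. No conclusion is therefore drawn from how their called shares differ from those of all genes. Cullin ligases are switched on by attachment of NEDD8. Of 8 genes listed around this step, 6 were called lower and 1 higher, or 87.5% beside 4.43% of all genes. Not all of the 8 act in the attachment itself. The lower ones were UBE2M, the NEDD8-conjugating enzyme, at -1.57 ± 0.49, UBA3 and NAE1, which form the NEDD8-activating enzyme, at -1.20 ± 0.19 and -0.68 ± 0.43, and NEDD8 itself at -1.06 ± 0.35. CAND1, which exchanges substrate receptors, was at -0.75 ± 0.12 and the NEDD8 ligase subunit DCUN1D1 at -0.60 ± 0.38 (SD, 4 guides each). RBX1, the RING subunit of most cullin ligases, ran the other way at 0.66 ± 0.34, and the list median was -0.72. COPS5, the gene not called, was at -0.03 ± 0.40 (SD, 4 guides), with guides of both signs. In high versus bulk 4 of these 8 were called higher, UBE2M at 1.31, NEDD8 at 0.93, UBA3 at 0.73 and CAND1 at 0.51, beside 2.67% of all genes called in either direction. In low versus bulk, where 0.974% of all genes were called, none of the 8 was.

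None of 35 other adaptors of CUL3 was called, and the one furthest from 0 was KLHL7 at -0.42, followed by KLHL11 at -0.33. Nor were any of 7 other cullins, of which CUL4A was furthest from 0 at 0.49 and CUL9 next at 0.28. The same held for 7 proteins that bind KEAP1, led by AMER1 at -0.23 and MCM3 at 0.23. Medians of these lists were 0.05, 0.15 and 0.06. With 4.43% of all genes called, counts of 0 in lists of this size are near the background and are no result about them.

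Of 10 genes for other routes of NRF2 and NRF1 degradation or processing, 3 were called higher and 1 lower, or 40.0% beside 4.43% of all genes. VCP, the segregase that extracts proteins from the endoplasmic reticulum, was at 1.68 ± 0.26, FBXW7, a substrate receptor of CUL1 ligases, at 1.43 ± 0.57, and SYVN1, a ligase of the endoplasmic reticulum, at 0.87 ± 0.62. NGLY1, the glycanase that processes NRF1, was lower at -0.55 ± 0.23 (SD, 4 guides each). FBXW7 and VCP were also called in low versus bulk, at 1.03 and 0.99 beside 0.974% of all genes, and VCP in high versus bulk at -0.69 beside 2.67%. Each of these proteins has many other substrates, and the list median was -0.02.

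Of 33 NRF2 target and redox genes, SOD1, the cytosolic superoxide dismutase, was called lower at -1.14 ± 0.19 (SD, 4 guides) and TXNRD1, the cytosolic thioredoxin reductase, at -0.61 ± 0.02 (SD, 3 guides). These 2 genes are 6.06% of the list, a share near the 4.43% of all genes. SOD1 was also called in high versus bulk, at 0.93, as 1 of 33 or 3.03% beside 2.67%. The list median was 0.00. None of 7 other CNC and large MAF factors was called genome-wide, and NFE2 scored 0.14. In the TF-focused tables BACH2, a relative of BACH1, was called in low versus bulk of the first pair at -1.28 ± 0.87 (SD, 6 guides), beside 6.6% of all genes. BACH2 was not called in the second pair, at -1.02 ± 0.84 with 1 guide above 0, nor in TF-focused low versus high, at -0.83 ± 0.72. Genome-wide it scored -0.004 in low versus high and 0.13 in low versus bulk.

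**Figure D5:**
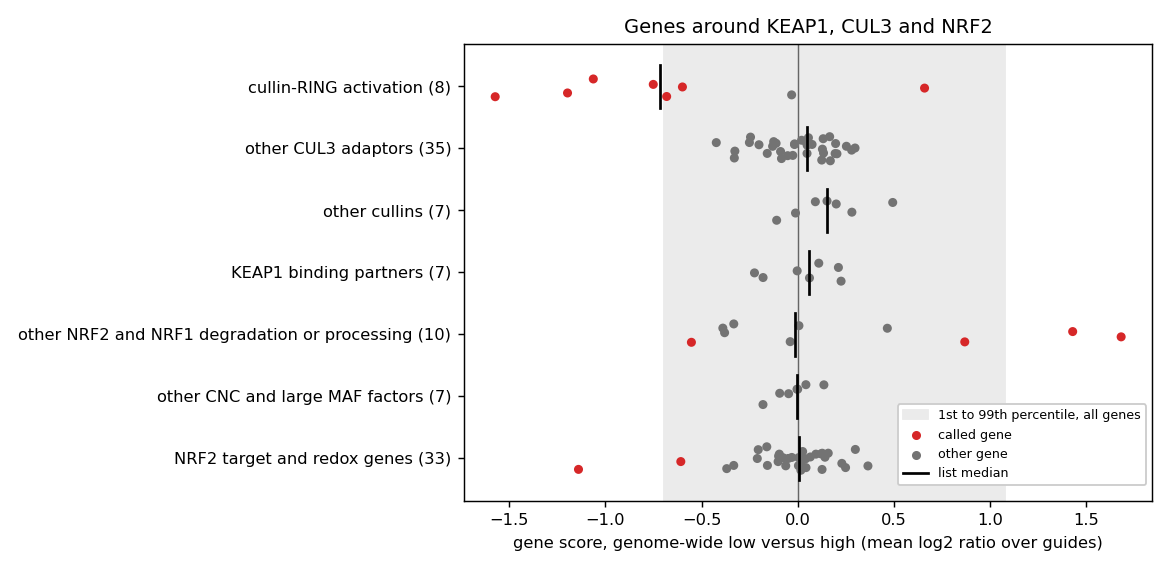
Genome-wide low versus high scores (mean log2 ratio over guides) of the genes in 7 lists around KEAP1, CUL3 and NRF2, with called genes in red, the list median as a black bar and a grey band for the 1st to 99th percentile of all genes. Of 8 cullin-RING activation genes 7 are called, 6 of them left of 0 and RBX1 right of it.

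Profiles over the 3 genome-wide bins, each centred on its own mean, placed the members beside other genes. KEAP1 had -0.75, -0.13 and 0.88 on the log2 scale in low, bulk and high, and its nearest genes by Euclidean distance over 3 libraries were KMT2D, INTS12, TNRC18, CHD8 and ZC3HC1, at distances from 0.0671 to 0.224. CUL3 had -0.32, -0.32 and 0.64, and its nearest were GPKOW, PPP6C, ZC3H13, HDAC3 and DNAJC17, at 0.0121 to 0.0402. NFE2L2 had 0.40, 0.03 and -0.43, and its nearest were CEBPB, NIFK, RSL1D1, TAF10 and AGO2, at 0.0152 to 0.0169. Of all ranked genes, CUL3 was the 111th nearest to KEAP1, while KEAP1 was the 632nd nearest to CUL3, behind MAFK as the 253rd. These distances rest on 3 libraries and describe them only.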

How the data were processed

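Guide inserts were PCR-amplified from the DNA of sorted cells and sequenced. The files deposited by the authors hold raw, unnormalized counts of reads for each guide. The submitters' processing notes name MAGeCK and hg38 without saying which step used them, and MAGeCK was not used here. Libraries were scaled by median-ratio size factors. A guide was dropped when its normalized count averaged under 30 over the libraries of its table, which kept 76980 of 77441 genome-wide guides, 8723 of 8739 TF-focused guides and 8725 in the second pair. Ratios used a pseudocount of 5 and were centred so that the median targeting guide was at 0. With 1 library per bin no p-value was computed. Python 3.11.15, NumPy 2.4.6, pandas 2.3.3 and SciPy 1.17.1 were used, and the scoring was tested on simulated data. That test checked only that mean scores set in advance were recovered, with guide noise not fitted to the controls. The members, the 7 lists and the comparisons were chosen with earlier results of these data known. Named genes were the members, SERPINB5 and KLF5, the called genes and up to 2 genes furthest from 0 in each list. The 5 nearest profiles of KEAP1, CUL3 and NFE2L2 were named too, as was COPS5, the uncalled gene of its list. TF-focused genes were read from guide names, and positions are from GENCODE release 44 on hg38. Reads are PCR copies with no molecular identifiers stated. The values of 1 gene that this rule names are not reported here.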

Additional observations from a re-analysis of the deposited data

Results flagged for a closer look

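NFE2L2 had scores of opposite sign in the same contrast of the 2 libraries: 0.84 ± 0.16 (SD, 4 guides) in genome-wide low versus high and -2.17 ± 1.48 (SD, 5 guides) in TF-focused low versus high. All 4 guides lay above 0 in the first and all 5 below 0 in the second, which is what brought the gene here. Of the 5, guides 1 and 2, at -0.69 and -0.51, lay inside the range of the 49 TF-focused controls. In TF-focused low versus bulk these guides were above 0, at 0.86 and 0.68, and the others below it. The TF-focused low versus high score also rests on the high library whose labels conflicted and which separated KLF5 weakly from bulk. The difference between the libraries was not tested, since each bin was 1 library.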

How the results depend on the processing

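No member score that was called changed sign under any alternative run. Of 446 member scores recomputed under other settings, 344 moved by less than their counting error and 102 by more. Of the 446, 13 changed sign, each a score that was not called in its comparison. The threshold of 1 and the lack of a guide sign condition change calls only, so scores under them could not move. Scaling by total counts nearly cancels when ratios are centred. The 344 therefore overstate how stable the scores are. Of 65 recomputed counts of called members, 10 moved by over 1.5 times. With a score threshold of 1, the count was 1 in genome-wide low versus high (KEAP1), 0 in low versus bulk, 1 in high versus bulk (KEAP1) and 0 in TF-focused low versus bulk. With no condition on guide signs it was 4 in TF-focused low versus high, 5 in low versus bulk, 2 in high versus bulk and 5 in the second pair. Centred on control guides it was 0 in TF-focused low versus bulk and 1 in the second pair (BACH1).

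Over all genes, a threshold of 1 took the calls from 846 to 288, 186 to 15 and 511 to 114 in genome-wide low versus high, low versus bulk and high versus bulk. It took them from 71 to 15, 94 to 27, 9 to 1 and 82 to 14 in the TF-focused comparisons and the second pair. With no condition on guide signs the last 4 became 253, 442, 30 and 364. Without the guide furthest from 0 the calls became 120 in genome-wide low versus bulk and 5 in TF-focused high versus bulk, with the sum of bulk and high as reference 483 in genome-wide low versus high, and centred on controls 142 in the second pair. Counts of called genes in the lists were equal in each comparison under centring on controls. They were also equal under scaling by total counts, which is little of a check. After centring, that scaling alters ratios only through the pseudocount and the filter on low counts. Leaving out each guide in turn, and the list recounts, were chosen after seeing the data. No paired analysis was possible because each bin was 1 library. Low counts, such as the 57 reads of TF-focused NFE2L2 guide 5 in the low library, limit single ratios, and the spread between repeat sorts is not known.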
